A study of Mus musculus with 12 samples.

Results

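Npas2, Arntl, Clock, Cry1 and Nfil3, 5 of the 55487 genes in the deposited table, were described in kidneys of mice with X-linked Alport syndrome. They are the activators of the circadian clock and genes whose transcripts peak with them, and they were taken by symbol from the deposited table. The members were chosen by their measured difference between diets in these libraries, so values by diet are given as a description, and tests were kept to quantities the choice did not use.

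The circadian clock is a feedback loop of transcription factors that runs in most cells of the body, kidney tubules included. ARNTL (also called BMAL1) pairs with CLOCK or with its relative NPAS2 and binds E-box sequences, which switches on the Per and Cry repressors, the nuclear receptors Nr1d1 and Nr1d2 (REV-ERB) and output factors such as Dbp. PER and CRY proteins then inhibit the ARNTL complexes, while REV-ERB proteins repress Arntl, Npas2, Clock, Cry1 and Nfil3 through sites shared with the ROR activators, so that these genes peak near the trough of Dbp and Nr1d1. In the kidney the loop is known for driving daily rhythms of salt, water and acid handling.

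X-linked Alport syndrome is an inherited disease of the type IV collagen network of the glomerular basement membrane, and the labels name its gene, Col4a5, in every title. The libraries came from whole kidneys of males on the B6 background, 30 weeks old, fed a control diet (n = 6) or chow containing fisetin, a plant flavonol, at 500 ppm (n = 6). All 12 carried the disease background, the genotype field read HET in each although the design describes males, and kidneys without the disease were not analysed here. The labels give 2 batches, with 3 control and 3 fisetin libraries in each. The labels do not say which libraries came from which animals, so p-values measure the spread between these libraries. Within a diet, libraries were numbered in accession order, and 1 to 3 are batch 1 and 4 to 6 are batch 2. No time of day of collection is given, so for clock genes a difference in collection time and a difference in diet cannot be told apart.

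Libraries held 16310214 to 24451821 counts. All 14 markers of podocytes, tubule segments and endothelium that were checked were detected in every library. Of 17890 genes tested, 0 passed the threshold (a Benjamini-Hochberg adjusted p under 0.05 in edgeR's quasi-likelihood test) between diets, against 2608 with an unadjusted p under 0.05, 153 past the threshold by DESeq2 and 2390 by limma-voom with quality weights. The median log2 fold change over all genes was 0.0008. All 14 tested immune cell markers had a log2 fold change above 0 and all 14 tubule markers one below 0, and 0 of either passed the threshold (5 and 2 had an unadjusted p under 0.05). The summed level of the 15 listed immune markers was 367.5 to 681.8 CPM (counts scaled to a common library size) in control and 367.6 to 913.3 CPM in fisetin kidneys, and that of the tubule markers 9359 to 17060 and 6998 to 15960 CPM. None of these markers was at 0 in any library. In whole tissue, fewer cells of a type and less RNA per cell cannot be told apart.

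The promoters are shown first because the loop acts on its own genes through short elements there. All 5 members were matched in the RefSeq promoter table (build GRCm38.p6, 250 bases before to 50 after each start), with 3 starts for Clock and 2 for Arntl. Motifs were searched on both strands, and they were chosen after the sequences had been seen. In each sequence below, written 5′ to 3′ along the strand of the gene, capitals mark the match.
Arntl, chr7:113207527-113207556, plus strand: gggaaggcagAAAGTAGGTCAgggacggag
Nfil3, chr13:52981037-52981061, minus strand: cgctcggaacTGACCTactaacaca
Cry1, chr10:85185065-85185304, minus strand: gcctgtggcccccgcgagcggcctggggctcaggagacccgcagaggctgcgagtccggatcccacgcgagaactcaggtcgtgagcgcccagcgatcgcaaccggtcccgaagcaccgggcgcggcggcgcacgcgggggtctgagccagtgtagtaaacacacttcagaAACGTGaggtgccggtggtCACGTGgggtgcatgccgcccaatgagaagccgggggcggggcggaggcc

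The Arntl stretch holds the ROR response element consensus, which ROR and REV-ERB receptors share, at chr7:113207537-113207547, from position 27 after the second start, in the transcribed part of the gene. That consensus occurred in 0.384% of the 32851 promoter windows in the table. Among the 5 members, some with more than 1 window, it occurred in 1 window of 1 member. The core AGGTCA that lies inside it occurred in 16.3% of promoters, and in Nfil3 it was found on the opposite strand at chr13:52981046-52981051. Clock had this core too, on the opposite strand upstream of the third start, at chr5:76303616-76303621, in ctttggcctcTGACCTgacagatga. The Nfil3 and Clock sites both lie inside their annotated genes. The Cry1 stretch is the part of its promoter outside the annotated gene and holds an E-box, CACGTG, at chr10:85185109-85185114, 60 bases before the start, found in 7.15% of promoters. Next to it, at chr10:85185128-85185133, lies the variant CACGTT on the opposite strand, found in 4.68%. The D-box TTATGNAA, the sequence that DBP and NFIL3 proteins compete for, was in 3.38% of promoters and in no member's window. Npas2 had no match to any of these letters in its window. The 250 bases before its start, chr1:39194022-39194271, lie inside the annotated gene, so the sequence upstream of that gene was not searched.

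Npas2 was the member with the widest separation between the diets. NPAS2 is the relative of CLOCK that can take its place as the partner of ARNTL. The gene (ENSMUSG00000026077) lies on the plus strand of chromosome 1, from 39193731 to 39363236 in GRCm38. Control kidneys had 19.6 CPM at the lowest, a median of 25.9 and 30.8 at the highest, and fisetin kidneys 13.03, 14.6 and 21.8 CPM. In batch 1, controls 1 to 3 had 19.6, 29.1 and 22.5 CPM and fisetin kidneys 1 to 3 had 14.0, 13.1 and 15.2 CPM. In batch 2, controls 4 to 6 had 30.8, 24.6 and 27.2 CPM and fisetin kidneys 4 to 6 had 13.03, 15.5 and 21.8 CPM. In CPM, every fisetin kidney lay below every control within each batch. Over both batches the diets overlapped through 1 library, fisetin 6, which lay above control 1. Over all genes, 0.749% had fisetin kidneys below controls with no overlap in each batch, and 0.425% had none over the 6 against 6 libraries. The means of Npas2 were 25.6 ± 4.21 and 15.4 ± 3.26 CPM (SD, n = 6 each) in control and fisetin kidneys, a ratio of 0.602. The fitted log2 fold change, with batch as a term, was −0.73 ± 0.13 (SE), and 0.604% of genes had a lower one.

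Arntl, which encodes the partner that CLOCK and NPAS2 share, differed less. The gene (ENSMUSG00000055116) spans 113207465 to 113314126 on the plus strand of chromosome 7. Controls had 26.9, 30.6 and 32.2 CPM (lowest, median and highest) and fisetin kidneys 22.3, 24.5 and 30.4 CPM. The diets overlapped: 4 of 6 fisetin kidneys lay below the lowest control, and fisetin 1 and fisetin 6, at 30.4 and 29.1 CPM, lay among the controls. In batch 2 alone all 3 fisetin kidneys were below the 3 controls, as for 4.8% of genes. The means were 29.9 ± 1.98 and 25.7 ± 3.39 CPM (SD, n = 6 each), and the log2 fold change was −0.22 ± 0.08 (SE), with 10.9% of genes lower.

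Clock encodes the other partner of ARNTL, and its means by diet were nearly the same. The gene (ENSMUSG00000029238) spans 76209868 to 76304792 on the minus strand of chromosome 5. Controls had 96.2, 115.4 and 122.3 CPM and fisetin kidneys 106.5, 113.5 and 116.3 CPM, so that every fisetin value lay inside the control range. The means were 112.2 ± 9.20 and 112.7 ± 3.40 CPM (SD, n = 6 each), and the log2 fold change was 0.01 ± 0.05 (SE). Clock shares its strand with a pseudogene (Ube2n-ps1, 101 to 178 counts) and an unnamed transcript (Gm43658, 87 to 139 counts), against 1824 to 2791 counts of its own, so a small part of its reads could be divided among them.

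Cry1 encodes a repressor of the ARNTL complexes whose transcript peaks later than those of the other repressors, near the activators. The gene (ENSMUSG00000020038) spans 85131700 to 85185064 on the minus strand of chromosome 10. Controls had 6.54, 7.56 and 8.79 CPM and fisetin kidneys 5.53, 5.89 and 7.02 CPM. All 6 fisetin kidneys lay below the control mean and 4 lay below the lowest control, and in batch 1 the diets did not overlap, as for 6.28% of genes. The means were 7.60 ± 0.917 and 6.12 ± 0.611 CPM (SD, n = 6 each), and the log2 fold change was −0.31 ± 0.09 (SE), with 5.99% of genes lower. It was also the scarcest member, with 103 to 175 counts in a library.

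Nfil3 encodes a repressor that competes with DBP for D-boxes. The gene (ENSMUSG00000056749) spans 52967209 to 52981073 on the minus strand of chromosome 13. Controls had 8.84, 10.1 and 12.5 CPM and fisetin kidneys 7.46, 8.35 and 11.3 CPM. The diets overlapped in both batches, since fisetin 1 and fisetin 5 stood at 10.4 and 11.3 CPM while the other 4 fisetin kidneys were below every control. The means were 10.2 ± 1.24 and 8.99 ± 1.496 CPM (SD, n = 6 each), and the log2 fold change was −0.19 ± 0.12 (SE), with 13.5% of genes lower.

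**Figure D1:**
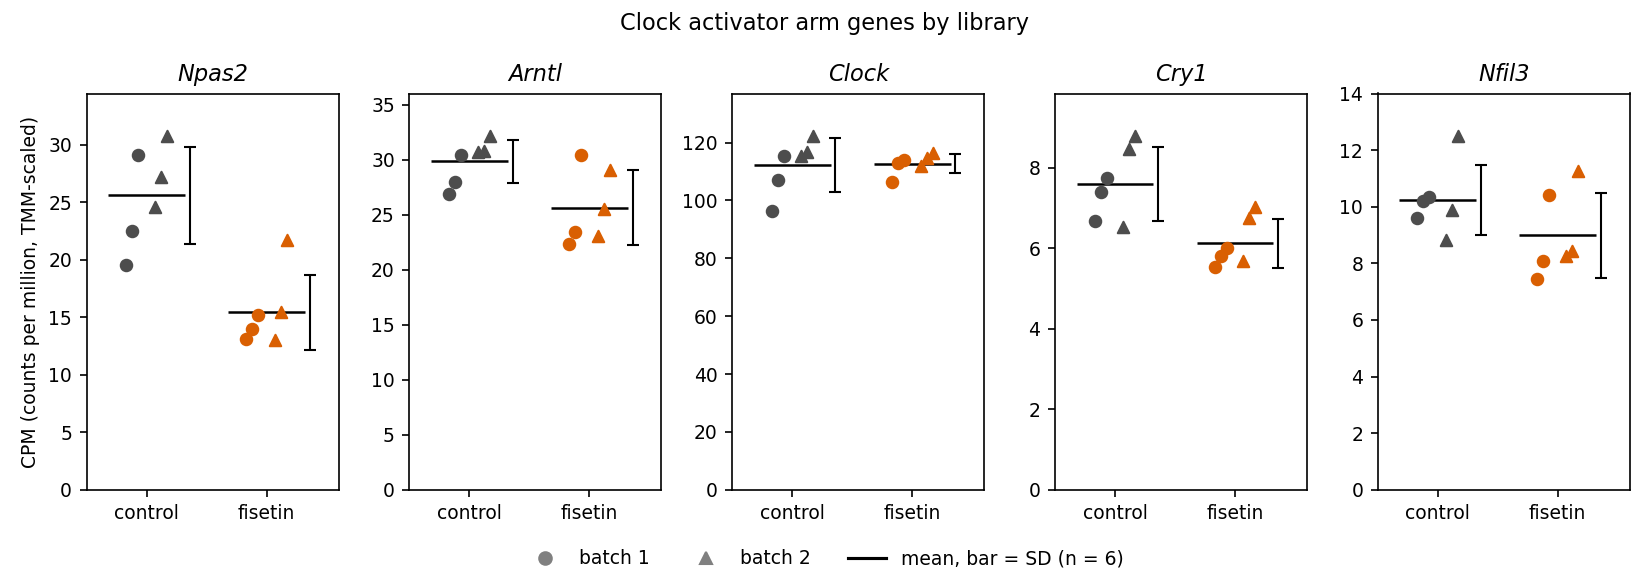
CPM (counts scaled to a common library size by the trimmed mean of M values) of each member in each library, by diet, with the marker shape giving the batch and the line and bar the mean and SD of 6 libraries. In the Npas2 panel 5 of 6 fisetin kidneys lie below the lowest control (19.6 CPM) and fisetin 6 lies at 21.8 CPM, while in the Clock panel the fisetin kidneys lie inside the control range.

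Of the 5 members, 4 had a log2 fold change below 0, as did 49.8% of all genes. By edgeR's quasi-likelihood test 0 of 5 passed the threshold in this contrast, where 0.0% of genes did, and 3 of 5 (Npas2, Arntl and Cry1) had an unadjusted p under 0.05, each below 0, where 14.6% of genes did in either direction and 6.34% below 0. DESeq2 called 1 of 5 (Npas2), where it called 0.855% of genes, and limma-voom with quality weights called 2 of 5 (Npas2 and Arntl), where it called 13.4%. Without fisetin 6, edgeR called 1 of 5 (Npas2, log2 fold change −0.84), where it called 0.388% of genes. These counts come from the contrast that chose the members and are given as a description.

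The batches were compared in the same fit. Between batches (batch 2 minus batch 1, diet as a term), the log2 fold changes were 0.23 ± 0.13 for Npas2, 0.08 ± 0.08 for Arntl, 0.10 ± 0.05 for Clock, 0.15 ± 0.09 for Cry1 and 0.08 ± 0.12 for Nfil3 (SE). By edgeR's quasi-likelihood test 0 of 5 passed the threshold, with Benjamini-Hochberg adjusted p = 0.892 for each but Nfil3 (0.905), and 0 of 5 had an unadjusted p under 0.05. Over all genes 0.0% passed and 3.38% had an unadjusted p under 0.05, and DESeq2 and limma-voom each called 0 genes. The difference between diets was fitted in each batch alone as well. Npas2 stood at −0.75 in batch 1 and −0.71 in batch 2, Arntl at −0.17 and −0.27, Clock at 0.06 and −0.04, Cry1 at −0.33 and −0.28, and Nfil3 at −0.22 and −0.16 on the log2 scale.

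The difference between those batch values, the interaction of diet with batch, is likewise a description, since the choice of members used the values per batch. It called 0 of 5 members and 0.0% of genes with edgeR (2.1% of genes had an unadjusted p under 0.05). DESeq2 called 1 gene (0.00559%), no member, and limma-voom 0. The interaction estimates were 0.03 ± 0.27 for Npas2, −0.11 ± 0.17 for Arntl, −0.11 ± 0.10 for Clock, 0.04 ± 0.20 for Cry1 and 0.06 ± 0.24 for Nfil3 (SE, log2). With these standard errors, interactions as large as the diet values of Arntl, Cry1 or Nfil3 could not be resolved.

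**Figure D2:**
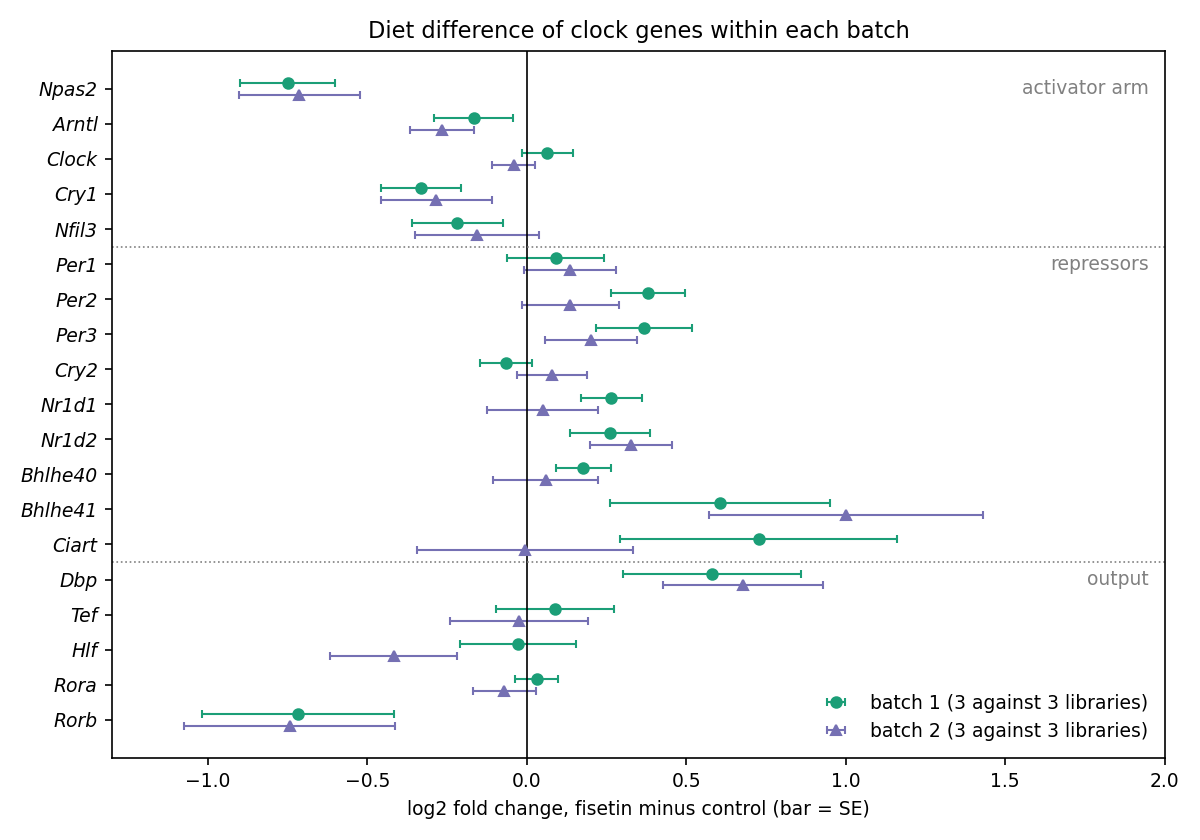
Log2 fold change (fisetin minus control, bar = SE) of the members and the other clock genes, fitted within batch 1 and within batch 2 (3 against 3 libraries each). Npas2 stands at −0.75 and −0.71 in the 2 batches, Clock lies at either side of 0, and among the repressors Nr1d2 and Bhlhe41 lie to the right.

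The other genes of the loop were read from the same fit. The 9 repressors of the activators or of their genes were Per1, Per2, Per3, Cry2, Nr1d1, Nr1d2, Bhlhe40, Bhlhe41 and Ciart. In the edgeR fit all 9 had a log2 fold change above 0, as did 8984 of 17890 genes. Their median was 0.26, against 0.0008 over all genes. Cry2 stood at only 0.003 ± 0.07 (SE), and Ciart had 4 to 14 counts in controls and 8 to 18 in fisetin kidneys. Signs could turn in other settings, as for Per2 (−0.07 on log2(TPM + 1)) and Cry2 (−0.0004 with DESeq2). Of these 9 genes, 0 passed the threshold with edgeR and 4 had an unadjusted p under 0.05, as did 14.6% of all genes. Those 4 were Per2 (0.26 ± 0.10, SE), Per3 (0.28 ± 0.11), Nr1d2 (0.29 ± 0.10) and Bhlhe41 (0.80 ± 0.30). With quality weights, limma-voom called Per2, Per3 and Bhlhe41, where it called 13.4% of genes. DESeq2 called none of the repressors, but gave no adjusted p for Ciart. Bhlhe41, which encodes a repressor that competes for E-boxes, stood at 0.10 with the immune marker score as a further term, and Nr1d2 at 0.41.

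Among 5 output and stabilising genes, 2 were above 0 and 3 below, with 0 past the threshold with edgeR. Of these genes limma-voom with quality weights called Dbp and Rorb, where it called 13.4% of all genes. DESeq2 called none of them, but gave no adjusted p for Rorb. Dbp, the output factor that opposes Nfil3, stood at 0.63 ± 0.20 (SE), with 6.17, 9.25 and 15.8 CPM in controls (lowest, median and highest) and 10.6, 14.96 and 22.7 CPM in fisetin kidneys. All 6 fisetin kidneys lay above the control mean of Dbp, 9.96 CPM, and the diets overlapped. Rora and Rorb, which encode activators acting on the same sites as REV-ERB, stood at −0.02 ± 0.06 and −0.74 ± 0.20 (SE). Rorb was scarce, with 18 to 32 counts in controls and 10 to 19 in fisetin kidneys. Tef and Hlf, relatives of Dbp, stood at 0.03 and −0.23. The ratio of Arntl to Dbp in FPKM (fragments scaled by length and depth, which allows genes to be compared) was 0.924, 1.72 and 2.83 in controls and 0.497, 0.998 and 1.41 in fisetin kidneys (lowest, median and highest). Those ranges overlapped, with means of 1.76 ± 0.621 and 1.00 ± 0.394 (SD, n = 6 each).

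Genes of clock protein turnover (4 above 0, 5 below), genes known to be rhythmic in the kidney (5 and 9), glucocorticoid response genes (3 and 7), fasting response genes (6 and 4), temperature response genes (2 and 7) and immediate early genes (5 and 5) had 0 members past the threshold with edgeR. Their median log2 fold changes were −0.01, −0.10, −0.07, 0.15, −0.08 and 0.01 in that order. Unadjusted p-values under 0.05 numbered 0, 2, 0, 4, 1 and 2.

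Per length, the members formed an order in which only 1 neighbouring pair changed places between libraries. On the FPKM scale over all 12 libraries, Clock was highest at 18.2, then Arntl at 10.6, Npas2 at 6.12, Nfil3 at 5.59 and Cry1 at 2.71. Clock exceeded Arntl, Arntl exceeded Npas2, and Nfil3 exceeded Cry1 in 12 of 12 libraries. Npas2 exceeded Nfil3 in 8 of 12, and the difference between these neighbours was not tested. Their means were 6.98 and 5.86 FPKM in controls and, in the opposite order, 5.25 and 5.32 FPKM in fisetin kidneys.

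CLOCK and NPAS2 are alternative partners of ARNTL, and the FPKM ratio of Npas2 to Clock was 0.323, 0.380 and 0.482 in controls and 0.239, 0.265 and 0.417 in fisetin kidneys (lowest, median and highest). Of the 6 fisetin kidneys, 5 lay below the lowest control and fisetin 6, at 0.417, lay among them. The means were 0.396 ± 0.0623 and 0.284 ± 0.0668 (SD, n = 6 each).

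**Figure D3:**
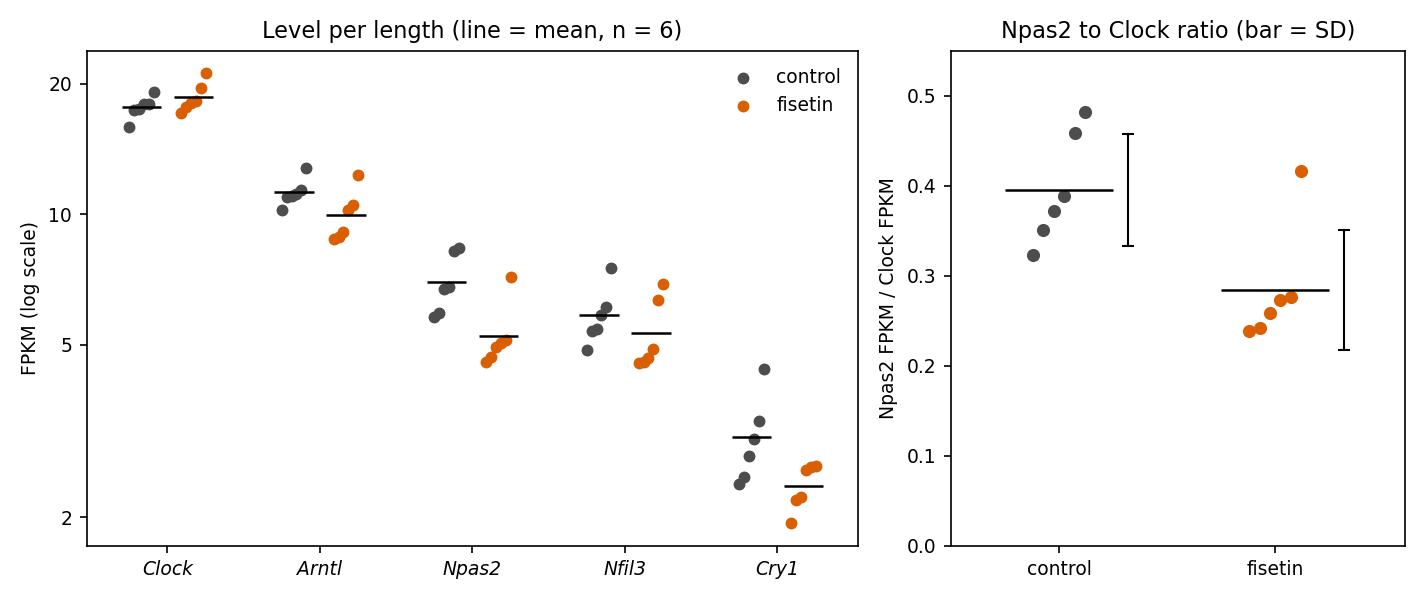
Left, FPKM of each member in each library (log axis), by diet, with the mean as a line; right, the ratio of Npas2 FPKM to Clock FPKM per library, with mean and SD of 6 libraries. Clock is highest and Cry1 lowest in both diets, and 5 of 6 fisetin kidneys have an Npas2 to Clock ratio below the lowest control (0.323).

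The deposited values also carry the length by which each gene's counts were divided, since counts over FPKM and library total return it. Npas2 was the member whose implied length differed between diets, a quantity looked at after the data had been seen. In controls it was 3.38 kb at the lowest, 3.63 at the median and 3.78 at the highest, and in fisetin kidneys 2.63, 3.04 and 3.19 kb. The diets did not overlap, and of 14035 genes with an FPKM of at least 1 in every library, 11 (0.0784%) had shorter implied lengths in all 6 fisetin kidneys than in all 6 controls. The annotation (GENCODE M21) gives Npas2 3 transcripts, a protein-coding one of 4.236 kb and short ones of 0.474 and 0.484 kb, and the share of counts that each transcript took was not analysed here. Over all genes the median implied length of a library was 0.995 to 1.01 of its mean over libraries.

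On the scales divided by length the Npas2 difference was smaller than on counts. Npas2 stood at 5.81, 6.77 and 8.38 FPKM in controls and 4.56, 4.99 and 7.16 FPKM in fisetin kidneys, with means of 6.98 ± 1.11 and 5.25 ± 0.960 (SD, n = 6 each). In FPKM the diets overlapped within batch 2, where fisetin 6 (7.16) lay above control 5 (6.72) and control 6 (6.81). On log2(TPM + 1) its fitted difference was −0.30 ± 0.14 (SE) in place of −0.73 on counts, and that scale also differs in its pseudocount and in how libraries are scaled. The implied length of Cry1 varied by 10.8% (CV) without following the diet, from 1.82 kb in control 6 to 2.73 kb. Those of Arntl, Clock and Nfil3 varied by 1.46%, 2.42% and 0.118%.

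Kidneys of the same diet and batch also differed from each other in the members. The biological coefficient of variation from the edgeR fit was 16.1% for Npas2, 14.9% for Nfil3, 12.1% for Cry1, 10.8% for Arntl and 7.89% for Clock. Among genes of like level, 83.5% varied less than Npas2, 62.5% less than Nfil3, 62.0% less than Arntl, 28.6% less than Clock and 21.5% less than Cry1.

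The choice of members did not use that remaining variation, so it was tested. Log2 CPM was centred within diet and batch, and the 10 pairs of members and the 40 pairs of a member with Dbp, Nr1d1, Nr1d2, Per2, Per3, Tef, Ciart or Bhlhe41 were compared over 12 libraries. P-values were exact and two-sided over 1296 arrangements within diet and batch, where the smallest possible is 0.000772. After Benjamini-Hochberg adjustment over the 50 pairs, 0 passed 0.05 by Pearson's r (smallest adjusted p = 0.212) and 0 by Spearman's rho (0.301), and 6 and 5 pairs had an unadjusted p under 0.05.

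The 10 pairs of members ran from r = −0.47 (Npas2 and Cry1) to 0.53 (Arntl and Nfil3), and none had an exact permutation p under 0.05. Npas2 and Arntl gave r = 0.50 (exact p = 0.110) and rho = 0.46 (exact p = 0.178), which came to 0.05 without control 2 and fisetin 6 and ran from 0.27 to 0.81 leaving out 1 library. Npas2 and Clock gave r = 0.43 (exact p = 0.290) and rho = 0.59 (exact p = 0.0648), which came to 0.75 (exact p = 0.0139) without the same libraries. Arntl and Nfil3 gave r = 0.53 (exact p = 0.188) and rho = 0.55 (exact p = 0.168), and 0.68 (exact p = 0.0417) without fisetin 1 and fisetin 6. Npas2 and Cry1 gave 0.54 in batch 1 and −0.83 in batch 2, and Arntl and Nfil3 gave 0.96 and 0.14.

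The 6 pairs with an unadjusted p under 0.05 were each negative and each joined a member to a repressor or output gene. They were set beside 14981 genes with a mean log2 CPM of 1 or more. With Nfil3, 3.69% of these genes had a lower r than Dbp, 4.76% a lower one than Nr1d1 and 0.474% a lower one than Tef. With Cry1, 0.280% had a lower r than Nr1d2, and with Arntl 0.701% and 0.661% had a lower r than Dbp and Per3. Nfil3 with Dbp gave r = −0.78 (exact permutation p = 0.00694, adjusted 0.212) and rho = −0.76 (exact p = 0.0139). It held within batch 1 (−0.82) and within batch 2 (−0.79). Without fisetin 1 and fisetin 5, the libraries farthest out in Nfil3, r was −0.71 (exact p = 0.00694, the smallest possible there). Cry1 with Nr1d2 gave r = −0.82 (exact permutation p = 0.00849, adjusted 0.212) and rho = −0.65 (exact p = 0.0664), with −0.80 and −0.91 in the batches and −0.77 (exact p = 0.0903) without control 4 and fisetin 6.

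Arntl had such values with Dbp and with Per3. Arntl with Dbp gave r = −0.73 (exact permutation p = 0.0332, adjusted 0.332) and rho = −0.76 (exact p = 0.0193), with −0.75 and −0.71 in the batches and −0.76 (exact p = 0.111) without fisetin 1 and fisetin 6. Arntl with Per3 gave the same r to 2 decimals (exact permutation p = 0.0332, adjusted 0.332) and rho = −0.78 (exact p = 0.0170), with −0.72 and −0.78 in the batches and −0.76 (exact p = 0.0694) without the same libraries.

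Nfil3 had 2 further pairs. With Tef, r was −0.87 (exact permutation p = 0.0216, adjusted 0.332) and rho −0.66 (exact p = 0.0887), with −0.82 and −0.91 in the batches and −0.69 (exact p = 0.236) without fisetin 1 and fisetin 5. With Nr1d1, r was −0.77 (exact permutation p = 0.0417, adjusted 0.347) and rho −0.78 (exact p = 0.0262), with −0.20 and −0.98 in the batches and −0.95 (exact p = 0.0278) without fisetin 1 and fisetin 5. On log2(TPM + 1) these 6 relations came to −0.05 (Nfil3 and Dbp), 0.31 (Cry1 and Nr1d2), 0.01 (Arntl and Dbp), 0.00 (Arntl and Per3), −0.31 (Nfil3 and Tef) and 0.03 (Nfil3 and Nr1d1), and 4 of the 6 changed sign.

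**Figure D4:**
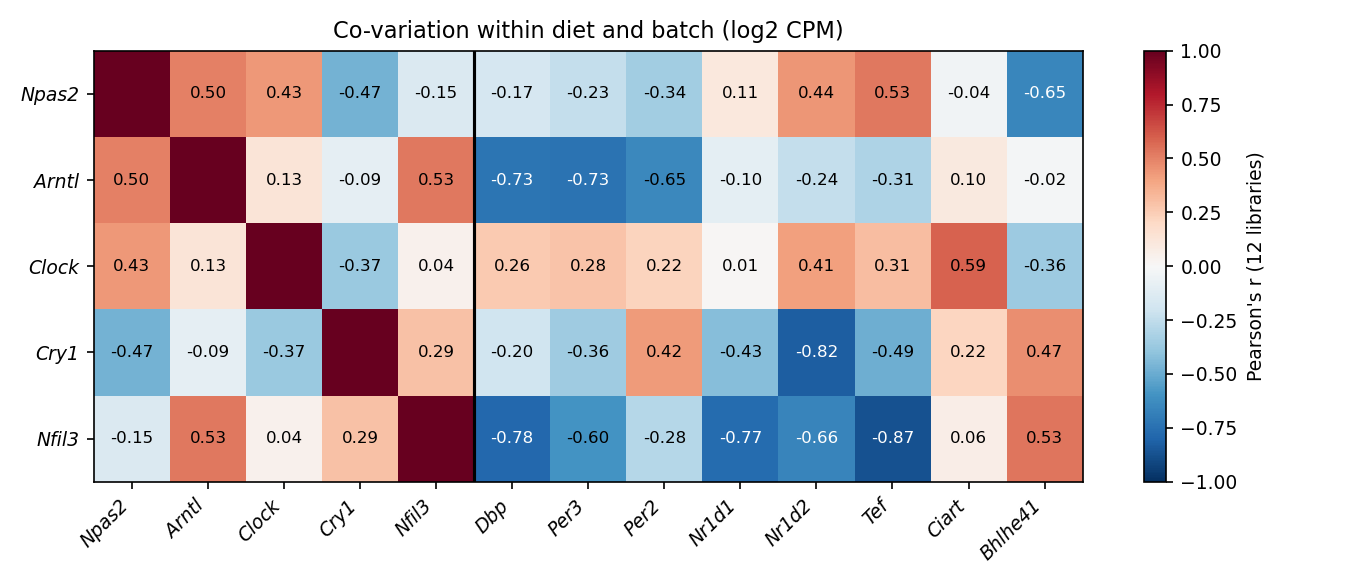
Pearson's r of log2 CPM centred within diet and batch (12 libraries) for each member (rows) with the other members and with 8 repressor and output genes (columns, right of the line). The lowest values are those of Nfil3 with Tef (−0.87) and Cry1 with Nr1d2 (−0.82), and 0 of the 50 pairs passed the adjusted threshold.

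**Figure D5:**
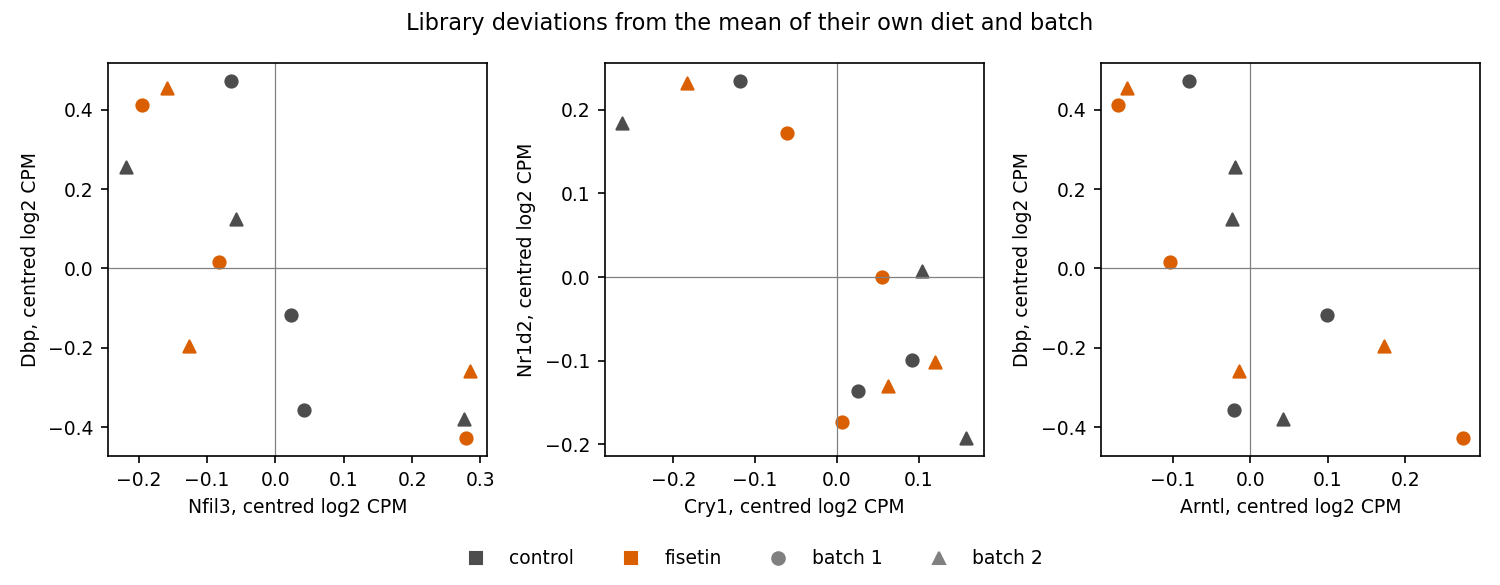
Deviations of single libraries from the mean of their own diet and batch (log2 CPM) for pairs of a member and another clock gene, coloured by diet with the batch as marker shape. Nfil3 and Dbp gave r = −0.78 and Cry1 and Nr1d2 gave r = −0.82, each negative in both batches. Neither pair passed the adjusted threshold, and on log2(TPM + 1) they came to −0.05 and 0.31.

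Cell type markers were set beside Npas2 library by library. Fisetin 6, the highest fisetin kidney in Npas2, had the lowest immune marker score of the 6 (mean log2 CPM 3.23, range 3.23 to 5.07) and the highest tubule marker score (8.55, range 7.09 to 8.55). Control 1, the lowest control in Npas2, had the highest immune score of the controls (4.58, range 3.17 to 4.58) and their lowest tubule score (7.74, range 7.74 to 8.50). Fisetin 5, with the highest immune score (5.07) and the lowest tubule score (7.09) of its diet, was the fisetin kidney next to fisetin 6 in Npas2, at 15.5 CPM. Centred within diet and batch, Npas2 and the immune score gave r = −0.72 (exact permutation p = 0.108) and rho = −0.57 (exact p = 0.178), and r = −0.71 (exact p = 0.313) without control 1 and fisetin 5. Within batches r was −0.75 and −0.71. Of the 10 pairs of a member with the immune or the tubule score, a comparison added after the data had been seen, 0 passed after adjustment (smallest adjusted p = 0.355, Nfil3 with the tubule score, r = −0.75, rho = −0.62, exact permutation p = 0.0355 and 0.0980).

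With the immune score as a further term, the log2 fold change of Npas2 was −0.53 ± 0.11, against −0.73 without it, and those of Arntl, Clock, Cry1 and Nfil3 were −0.19, 0.04, −0.38 and −0.29. With the tubule score in its place they were −0.59 ± 0.11 for Npas2, −0.22, 0.03, −0.38 and −0.34. The sign of each member was therefore the same with either score as without it.

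Listed below are the genes whose centred log2 CPM was most like or most opposite to that of each member over the 12 libraries. They were taken from 14981 genes whose mean log2 CPM was 1 or more. No clock gene was among those listed, but a list this short says little about clock genes. Rora gave r = 0.84 with Npas2 and 0.69 with Arntl, above 99.45% and 99.02% of these genes. Its r was 0.44 with Clock, −0.60 with Cry1 and 0.05 with Nfil3. Rora was not among the pairs tested. Cltc, the clathrin heavy chain, followed Npas2 most closely (r = 0.98), then Nova2 and Rnf14 (0.94 each), and Trim34a (−0.96), Lsm5 (−0.94) and Frmd4a (−0.92) ran opposite. For Arntl these were Gm38218 (0.94), Atp11b and Gm48871 (0.92 each), with Adat3 (−0.93), Tmem8b (−0.88) and Rnf43 (−0.87) opposite. For Clock they were Cluap1 (0.93), Ergic2 and Ccng1 (0.92 each), with Septin3 (−0.92), Ptgis and Camk2n2 (−0.91 each) opposite. Cry1 had Zxdc (0.97), Pcdhgb6 and Myl12a (0.95 each), and opposite it Mblac2, Abcb1a and Rwdd3 (−0.91 each). Nfil3 had Oga, the enzyme that removes O-GlcNAc (0.96), Snhg4 (0.96) and Chmp2b (0.95), and opposite it Ankrd46 (−0.98), Kcnma1 (−0.97) and Znhit2 (−0.96). These are the extremes of many values over 12 libraries that share depth and tissue makeup, and they are given as a description.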

How the data were processed

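RNA was sequenced from 12 kidney libraries made, per the labels' protocols, with the KAPA mRNA HyperPrep kit. Tools in the submitters' processing notes are STAR, fastp, featureCounts and DESeq2, with builds GRCm38 and mm10; annotation release and strand setting: not given in the sources used here. Per the file headers, each library has columns of estimated counts, FPKM and TPM. The expected (estimated) counts deposited by the authors are not scaled for depth, and 13.91% of those above 0 were not whole (tolerance 1e-06) and were rounded. Because of such values, and because implied lengths varied between libraries, the tool that produced the deposited counts is treated as not known. The TPM and FPKM values were scaled for transcript length and depth by the authors, per the file headers. All 36 value columns were matched by name.

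Genes passing filterByExpr by diet (minimum count 10; 17890 of 55487) were scaled with TMM and tested with edgeR 4.0.16 (glmQLFit robust, glmQLFTest, two-sided, terms for batch and diet, and their product for the interaction). P-values were adjusted by Benjamini-Hochberg over all genes tested, threshold 0.05. DESeq2 1.42.0, limma 3.58.1, other scalings, no filter, log2(TPM + 1), covariates and left-out libraries were alternatives. Log2 CPM used a prior count of 2. Permutation tests were run in Python 3.11.15, and the steps were tested on simulated data. The score of a marker list is its mean log2 CPM. Named genes are the 5 members, the clock lists, and for each member the 3 genes most and least correlated. The members, lists and tests were chosen with earlier results of these data known. 1 further clock gene is not reported here. Coordinates and symbols are from GENCODE M21 (GRCm38).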

Additional observations from a re-analysis of the deposited data

Results flagged for a closer look

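A single library stood far from the other 5 of its diet in 3 of 38 sets of values (19 clock genes in 2 diets), where chance flags about 1 in 20. Among the members this was Npas2 in fisetin 6, at 21.75 CPM with the next fisetin kidney at 15.45 CPM, a gap of 0.722 of the whole range. That library also had the lowest immune and the highest tubule marker score of its diet, and without it the log2 fold change of Npas2 was −0.84. Among the other clock genes, Per1 stood at 26.54 CPM in fisetin 2 (next 21.2 CPM). Control 1 stood apart in Bhlhe41 (13.56 CPM, next 8.355 CPM), and it was the control with the highest immune marker score.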

How the results depend on the processing

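Of the 5 members, the number past the threshold between diets was 1 with DESeq2 and 2 with limma-voom, against 0, and 0 to 1 leaving out 1 library (1 without fisetin 6). The number of genes was 153 with DESeq2, 2390 with limma-voom, 1 in batch 1 alone, 8 with the tubule score as a term, and 0 to 70 leaving out 1 library (1 without fisetin 4, 70 without fisetin 6). The causes were not tested. Leaving out 1 library, the diet difference of Npas2 ran from −0.84 to −0.66, and it was −0.30 on log2(TPM + 1). Npas2, Arntl, Cry1 and Nfil3 stayed below 0 in all 23 alternatives run for each, and Clock was below 0 in 5.

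The interaction called 1 gene with DESeq2. Its estimates changed sign for Npas2 (limma-voom −0.17, log2(TPM + 1) −0.0279, −0.203 to 0.192 leaving out 1 library), Arntl (−0.198 to 0.0529), Cry1 (log2(TPM + 1) −0.278, −0.0808 to 0.146) and Nfil3 (log2(TPM + 1) −0.0900, −0.0912 to 0.230), and none passed.

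On log2(TPM + 1), 1 of 50 pairs passed (Clock and Nfil3, r = 0.795). Signs of r turned for Npas2 and Cry1 (log2(TPM + 1) 0.200, centred in batch only 0.522, not centred 0.560, batch 1 0.543) and, in the same order, Npas2 and Nfil3 (0.233, 0.348, 0.376, 0.0575, and 0.00633 without the 2 farthest libraries, −0.406 to 0.0394 leaving out 1) and Arntl and Cry1 (0.416, 0.461, 0.503, 0.388, 0.428, −0.205 to 0.220, and rho 0.0490). They also turned for Arntl and Clock (−0.00468 without the farthest, −0.0504 to 0.409 leaving out 1), Clock and Cry1 (log2(TPM + 1) 0.557) and Clock and Nfil3 (centred in batch only −0.0366, −0.107 to 0.193 leaving out 1). On log2(TPM + 1) Arntl and Dbp came to 0.00714, Arntl and Per3 to 0.00261, Cry1 and Nr1d2 to 0.305 and Nfil3 and Nr1d1 to 0.0286. No paired analysis was possible because the replicate numbers only follow accession order. Cry1 had the fewest counts of the members, 103 to 175.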
